A study of Mus musculus with 34 samples.

Results

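Pancreatic islets of mice given diphtheria toxin (DT) were compared at a late and an earlier time after beta cells had been ablated. The late group, DT SD 10 weeks, and the earlier group, DT 30 days, held 4 samples each, chosen by their sample titles, so that 8 of the 34 samples of the series entered this comparison. All samples carry the genotype label RIP-DTR HTZ. In that system the rat insulin promoter drives the toxin receptor, so DT kills the insulin-producing beta cells, and the untreated groups carry the transgene too. The late group was on a diet labelled SD at 10 weeks, whereas the labels of the 30-day group name no diet, so time and any difference in diet cannot be told apart. A side comparison used untreated islets labelled CTRL SD at 10 weeks (n = 3) and CTRL (n = 3), the latter with neither time nor diet in its labels. Age, sex and the hour at which islets were taken are not in the labels, so a difference in any of them cannot be told apart from time either. Nor do they say that replicates came from separate animals, and p-values measure only the spread between samples, which was estimated from all 33 libraries of the 9 labelled groups. The other 5 groups were DT at 5 days and, at 10 weeks, CTRL and DT on a diet labelled HFD and mice given 75 mg/kg of streptozotocin (STZ, another beta-cell toxin) on SD or HFD.

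Total counts were between 13794218 and 17889676 per library in the 8 samples. The islet label fitted the markers: the 19 measured beta-cell markers summed to between 128600 and 310200 CPM (a gene's reads per fixed number of reads in the library, after TMM scaling) at 30 days and to between 234000 and 256500 CPM at 10 weeks. In untreated islets these markers summed to between 45170 and 148800 CPM in CTRL and to between 164400 and 186800 CPM in CTRL SD. One of the 8 libraries stood apart. On the first principal component of log2 CPM, which took 35.4% of the variance, DT 30 days replicate 2 lay at 128 and the other 7 libraries lay between -30.8 and -2.67. In that library 14 enterocyte markers summed to 3976 CPM against 131.2 to 160.6 CPM in the other 7, and 10 sympathetic neuron markers to 3422 CPM against 288.3 to 462.4 CPM. Its 10 Schwann cell and glia markers summed to 974.2 CPM, against 189.1 to 373.7 CPM elsewhere among the 8. Where a gene's difference rests on it, the value without it is given too. Among the untreated libraries, CTRL replicate 2 held 6824 CPM of enterocyte markers, against 272.2 and 313 CPM in the other CTRL libraries. Its beta-cell markers summed to 45170 CPM, against 106800 and 148800 CPM. Untreated differences include CTRL replicate 2 unless it is said to be left out.

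Of 17616 genes tested, 10 passed an adjusted p of 0.05 (0.0568%; edgeR quasi-likelihood test, Benjamini-Hochberg adjustment), 4 higher (0.0227%) and 6 lower (0.0341%) at 10 weeks than at 30 days. Among them were 3 genes of the circadian clock: Arntl, which had the smallest adjusted p, fell, and Nr1d2 and Dbp rose. The other genes that rose were Nnt and Hbp1, and those that fell were Col18a1, Igsf8, Ngfr and the immunoglobulin segments Ighv4-1 and Igkv3-9. In bulk islets, fewer cells of a type and less RNA per cell cannot be told apart. The count of genes depended on single libraries: it was 1 without DT 30 days replicate 2, without DT SD replicate 1 and without DT SD replicate 3, and 42 without DT 30 days replicate 1. Leaving out DT 30 days replicate 3 gave 19 genes, DT SD replicate 2 gave 5 and DT SD replicate 4 gave 3. A fit of the compared groups alone called 4 genes, Dbp, Nr1d2, Per3 and Gm10260, so that 8 of the 10 genes were not called there. DESeq2 called 335 of the 17616 genes, of which 286 were lower, and 118 with DT 30 days replicate 2 left out. The 10 genes above were among both sets. DESeq2 counts given below for single gene lists are to be read beside these counts over all genes.

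The circadian clock is a feedback loop of transcription factors that runs in most cells, including those of the islet. BMAL1, the product of Arntl, pairs with CLOCK or NPAS2 and activates genes through E-boxes, among them the Per and Cry genes, whose products then repress the pair. In a further loop the REV-ERB repressors, products of Nr1d1 and Nr1d2, and the ROR activators compete at ROR elements in the Arntl promoter. The factors DBP, TEF and HLF activate genes through D-boxes, and NFIL3 represses through the same sites.

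The promoter windows below show these elements in 5 clock genes, chosen after their values were seen. All 5 separated by group without overlap and hold a motif, but only Arntl passed the test. Each runs from 250 bases before to 50 bases after a gene's start (RefSeq, GRCm38.p6), 5′ to 3′ on the gene's strand. Capitals mark the ROR element AGTAGGTNA in Arntl (chr7:113207261-113207560, plus strand) and Nfil3 (chr13:52980990-52981289, minus strand), the E-box CACGTG in Ciart (chr3:95882179-95882478, minus strand) and Tef (chr15:81802423-81802722, plus strand), and the D-box TTATGNAA in Per3 (chr4:151044616-151044915, minus strand).
Arntl: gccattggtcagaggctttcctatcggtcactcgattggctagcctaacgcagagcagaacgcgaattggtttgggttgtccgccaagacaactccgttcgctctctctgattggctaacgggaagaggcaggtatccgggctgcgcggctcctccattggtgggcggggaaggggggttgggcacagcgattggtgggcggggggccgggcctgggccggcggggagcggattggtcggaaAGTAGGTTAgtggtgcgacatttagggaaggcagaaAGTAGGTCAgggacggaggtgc
Nfil3: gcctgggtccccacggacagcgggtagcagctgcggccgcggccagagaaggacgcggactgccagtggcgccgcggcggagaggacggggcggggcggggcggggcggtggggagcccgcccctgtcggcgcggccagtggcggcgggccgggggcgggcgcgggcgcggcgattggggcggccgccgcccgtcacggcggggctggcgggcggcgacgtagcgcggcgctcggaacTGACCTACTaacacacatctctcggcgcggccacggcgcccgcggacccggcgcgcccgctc
Ciart: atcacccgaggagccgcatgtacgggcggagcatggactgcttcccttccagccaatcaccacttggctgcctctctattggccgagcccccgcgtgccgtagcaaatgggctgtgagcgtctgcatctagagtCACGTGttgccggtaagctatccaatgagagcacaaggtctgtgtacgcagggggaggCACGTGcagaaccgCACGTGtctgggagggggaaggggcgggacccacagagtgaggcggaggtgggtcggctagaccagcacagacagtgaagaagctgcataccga
Tef: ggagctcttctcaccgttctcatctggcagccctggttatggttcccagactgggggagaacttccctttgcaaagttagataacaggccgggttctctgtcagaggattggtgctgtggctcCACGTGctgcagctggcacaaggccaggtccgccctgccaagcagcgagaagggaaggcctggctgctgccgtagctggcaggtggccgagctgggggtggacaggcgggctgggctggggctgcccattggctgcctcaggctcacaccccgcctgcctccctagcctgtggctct
Per3: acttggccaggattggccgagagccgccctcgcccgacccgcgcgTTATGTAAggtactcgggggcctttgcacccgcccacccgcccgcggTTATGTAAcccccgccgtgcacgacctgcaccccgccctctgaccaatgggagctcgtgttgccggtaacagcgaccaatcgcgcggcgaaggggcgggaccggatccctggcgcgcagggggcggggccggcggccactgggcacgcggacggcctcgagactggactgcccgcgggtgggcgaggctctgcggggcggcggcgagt

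Arntl has entries for 2 windows. The one shown holds the ROR element at 2 places and the other, which starts earlier, at 1. It was found in the Nfil3 window at 1 place, as its reverse complement. The Ciart window holds the E-box at 3 places, the Tef window the E-box at 1 and the Per3 window the D-box at 2. Motifs were searched on both strands, and the E-box is its own reverse complement. The table of promoters has entries for 16 of the 18 clock genes described. An E-box was found for 5 of the 16 genes (Per1, Cry1, Tef, Bhlhe41 and Ciart), a D-box for 2 (Per1 and Per3) and the ROR element for 2 (Arntl and Nfil3). Counted by window instead of by gene, 6 of the 21 clock windows (28.6%) held the E-box, 2 (9.5%) the D-box and 3 (14.3%) the ROR element. Among all 32851 windows, 7.15% held the E-box, 3.38% the D-box and 0.59% (194 windows) the ROR element. The last was written as part of the form known from Arntl itself, so its match there is no independent finding. The letters searched were not in the windows of Dbp and Nr1d2.

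Among the activators, Arntl (chr7:113207465-113314126, plus strand, GRCm38) had the smallest adjusted p of all genes. It stood at 21.4, 22.9, 26.6 and 21.5 CPM in the 4 DT 30 days libraries and at 8.77, 5.89, 8.67 and 10.3 CPM in the 4 DT SD libraries. All late libraries lay below all earlier ones, and the highest late value was less than any untreated value of CTRL (18.3 to 26.5 CPM) or CTRL SD (19.3 to 24.7 CPM). The level fell 2.74-fold, from 23.1 ± 2.45 CPM to 8.41 ± 1.84 CPM (SD, n = 4 each; log2 change -1.46, SE 0.19, adjusted p = 0.000497). The call held in each of 8 fits that left out 1 library of the compared groups, with log2 changes of -1.57 to -1.32. When only the compared groups were fitted, its adjusted p was 0.0529.

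NPAS2 can take the place of CLOCK beside BMAL1. Npas2 stood at 6.06, 4.92, 3.59 and 5.46 CPM at 30 days and at 2.05, 1.65, 1.52 and 0.574 CPM at 10 weeks, again without overlap, although its log2 change of -1.79 (SE 0.75) did not pass (adjusted p = 0.371). Clock itself overlapped between the groups, at 85.4 to 104.4 CPM and 72.1 to 87.2 CPM (log2 change -0.17, SE 0.17, adjusted p = 0.778).

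Of the REV-ERB repressors, Nr1d2 (chr14:18204054-18239127, minus strand) rose. It stood at 50.7, 46.2, 54.8 and 67.1 CPM at 30 days and at 149.4, 137.1, 144.0 and 129.1 CPM at 10 weeks. The groups lay far apart, with means of 54.7 ± 8.97 and 139.9 ± 8.81 CPM (SD, n = 4 each), and the late libraries also exceeded all untreated ones, of which the highest was 105.4 CPM in CTRL. The rise was 2.56-fold (log2 change 1.36, SE 0.25, adjusted p = 0.0302). Nr1d1, the gene of the other REV-ERB, was at 26.5, 42.9, 32.3 and 63.6 CPM at 30 days and at 91.8, 105.8, 80.9 and 83.3 CPM at 10 weeks. Here too each late library was above each earlier one, but the spread at 30 days was wide and the test was not passed (log2 change 1.13, SE 0.37, adjusted p = 0.221). The activator Rora was higher in every late library, by 0.38 on the log2 scale (SE 0.21, adjusted p = 0.519).

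The D-box activators were higher in every late library, and Dbp passed the test. Dbp (chr7:45705088-45710203, plus strand) stood at 17.0, 20.5, 19.6 and 31.4 CPM at 30 days and at 80.9, 106.4, 80.2 and 93.5 CPM at 10 weeks. Its lowest late library was more than any untreated library, the highest of which was 73.9 CPM. Dbp rose 4.08-fold, from 22.1 ± 6.34 to 90.2 ± 12.4 CPM (SD, n = 4 each; log2 change 2.03, SE 0.37, adjusted p = 0.0302). The related activator Tef (chr15:81802421-81826863, plus strand) was at 28.3, 50.1, 32.5 and 36.3 CPM and then at 76.9, 89.6, 76.4 and 76.4 CPM. Tef did not overlap either, and its adjusted p of 0.0755 was the smallest among clock genes that missed the threshold (log2 change 1.12, SE 0.23). Hlf, a further member of the family, stood at 5.68, 7.73, 6.30 and 7.57 CPM and then at 19.9, 17.6, 23.8 and 11.6 CPM (log2 change 1.42, SE 0.37, adjusted p = 0.139). Nfil3, which opposes these factors, was lower in every late library. It stood at 14.0, 11.4, 13.3 and 15.1 CPM at 30 days and at 6.88, 4.17, 10.3 and 4.45 CPM at 10 weeks (log2 change -1.07, SE 0.32, adjusted p = 0.189).

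The repressor side was less even. Per3 stood at 9.61, 11.2, 9.82 and 8.01 CPM at 30 days and at 31.0, 34.6, 29.2 and 21.7 CPM at 10 weeks (log2 change 1.59, SE 0.40, adjusted p = 0.132). Ciart, whose product CHRONO represses the BMAL1 pair, stood at 0.839, 0.958, 0.271 and 1.24 CPM and then at 4.59, 3.52, 1.85 and 3.51 CPM (log2 change 2.02, SE 0.48, adjusted p = 0.12). Neither overlapped between the groups, and neither passed. Per2 was likewise higher in every late library, at 17.7 to 24.7 CPM and then 28.2 to 36.6 CPM (log2 change 0.62, SE 0.27, adjusted p = 0.401). The remaining repressors overlapped: log2 changes were 0.31 for Per1, -0.44 for Cry1, 0.30 for Cry2, 0.33 for Bhlhe40 and 0.20 for Bhlhe41, with adjusted p-values of 0.317 to 0.795.

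**Figure D1:**
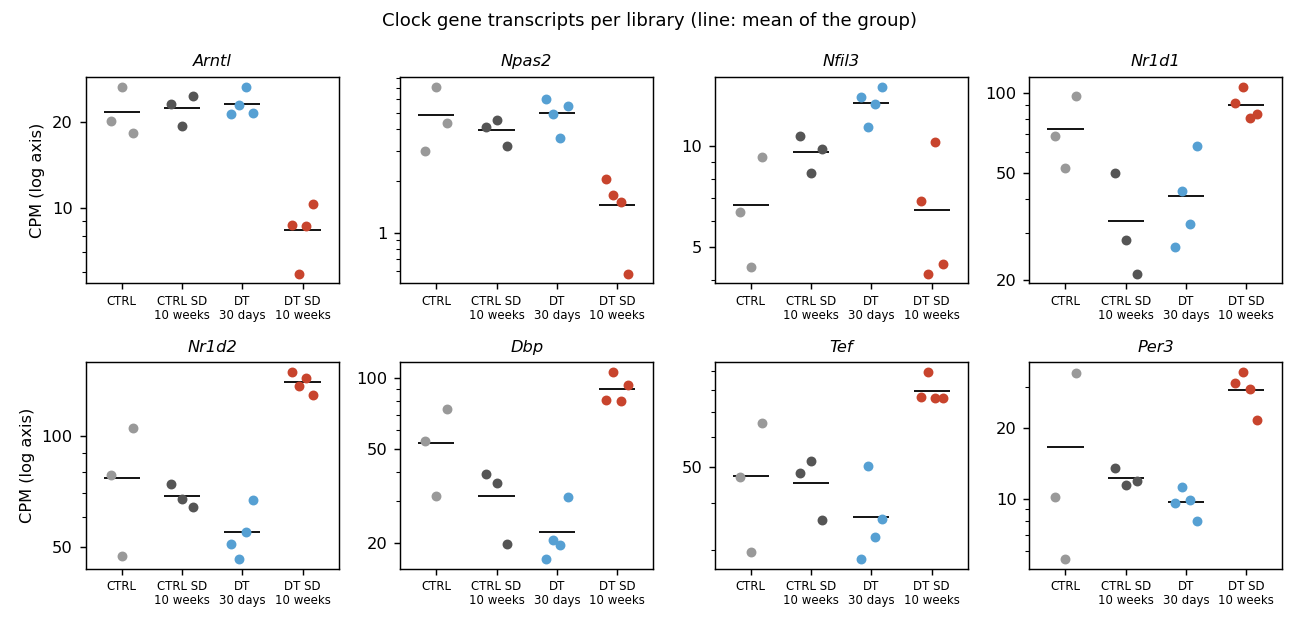
Levels of 8 circadian clock genes in single libraries of CTRL, CTRL SD, DT 30 days and DT SD 10 weeks, in CPM on a log axis; each point is 1 library and each line is the group mean. Arntl sits between 5.89 and 10.3 CPM in DT SD and between 18.3 and 26.6 CPM in the other groups, and Dbp sits between 80.2 and 106.4 CPM in DT SD and below that range in the others.

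Over the 18 clock genes described, 2 rose, 1 fell, and the 8 DT libraries separated without overlap by group for 12 genes (66.7%), 9 of them higher and 3 lower at 10 weeks. Over all genes tested the share without overlap was 7.55%, with 3.53% higher and 4.02% lower. The median log2 change was 0.36 over the clock genes and -0.03 over all genes, and 13 of the 18 lay above 0, against 46.1% of all genes. Of the 18 genes, 12 had an unadjusted p under 0.05, against 11.0% of all genes. Without DT 30 days replicate 2, the median was 0.37 and Arntl alone passed. Arntl alone also passed without any 1 of the 4 DT SD libraries, and without DT 30 days replicate 3 there were 2 calls. For Nr1d2 the adjusted p was at most 0.154 over these fits, and for Dbp at most 0.154. Dbp also missed the threshold without a filter on low counts (adjusted p = 0.0508) and with an acinar covariate (adjusted p = 0.0571). DESeq2 called 8 of the 18, and 7 without DT 30 days replicate 2, beside the counts over all genes given above. The genes feed on one another in a loop and are not independent measurements. The hour at which islets were taken is not in the labels, and its part in the clock values was not tested.

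The clock genes were also compared in untreated islets. Between CTRL and CTRL SD the median log2 change of the 18 genes was -0.04, with 8 genes above 0 and 10 below. The groups did not overlap for 2 of them, both lower, against 14.4% of all genes (6.87% higher and 7.53% lower). Arntl differed by 0.05 on the log2 scale (SE 0.21, adjusted p = 0.938), Dbp by -0.74 (SE 0.41, adjusted p = 0.486) and Nr1d2 by -0.17. A direct test of the DT difference against the untreated one gave -1.51 for Arntl (SE 0.28, adjusted p = 0.116), 2.77 for Dbp (SE 0.56, adjusted p = 0.145) and 1.52 for Nr1d2 (SE 0.37, adjusted p = 0.664). By that test edgeR called 0 genes (0.00%; 937 or 5.32% had an unadjusted p under 0.05) and DESeq2 called 31. The libraries rich in enterocyte RNA, CTRL replicate 2 and DT 30 days replicate 2 among them, were also left out of all groups. In that fit edgeR called 3 genes, which were Arntl, Dbp and Nr1d2. Their log2 differences were -1.68, 3.01 and 1.71 (adjusted p = 0.0331 each). Over 22 alternatives of the direct test each of the 3 passed in 2, that fit and DESeq2. Their largest edgeR adjusted p-values were 0.628, 0.903 and 0.999.

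**Figure D2:**
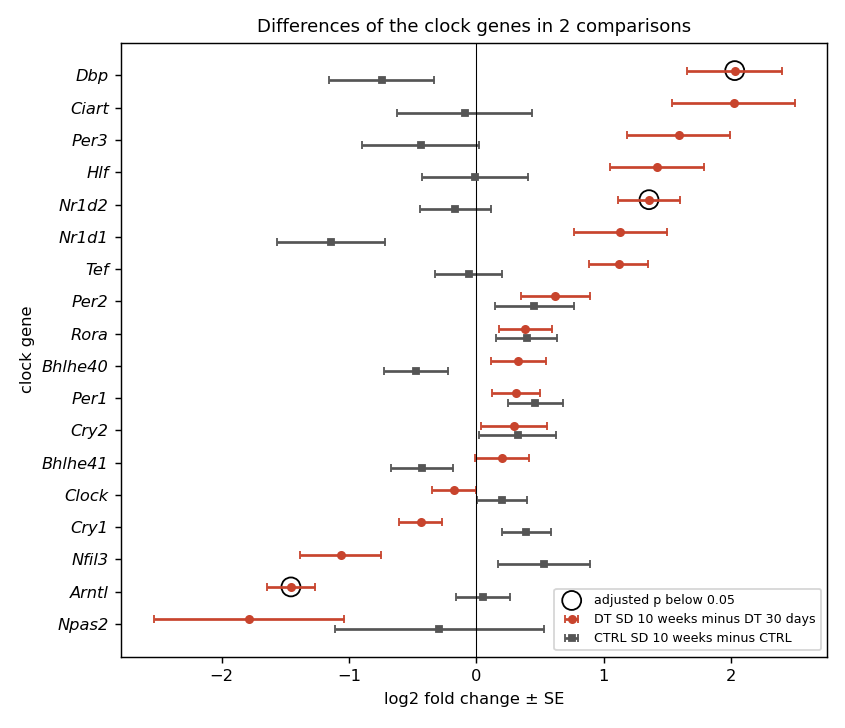
Log2 differences of the 18 clock genes, with bars of 1 SE, for DT SD 10 weeks minus DT 30 days and for CTRL SD minus CTRL; circles mark an adjusted p under 0.05. Arntl (-1.46), Nr1d2 (1.36) and Dbp (2.03) are circled in the DT comparison, in which 13 of the 18 genes lie above 0.

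Across the 9 groups of the series, Arntl was not lowest in DT SD alone. Its median was 8.72 CPM in DT SD, 8.62 CPM in the STZ HFD group and 10.4 CPM in STZ SD, and the ranges of these 3 groups overlapped. The other 6 groups had medians between 17.0 CPM in CTRL HFD and 27.3 CPM in the group taken 5 days after DT. DT HFD, the other 10-week DT group, ranged from 15.6 to 20.4 CPM, above the DT SD range of 5.89 to 10.3 CPM. Dbp was high in the same 3 groups. Its median was 87.2 CPM in DT SD, 108.0 CPM in STZ SD and 90.7 CPM in STZ HFD, with overlapping ranges, and 20.1 CPM in DT 30 days, the lowest. These levels are a description without a test.

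**Figure D3:**
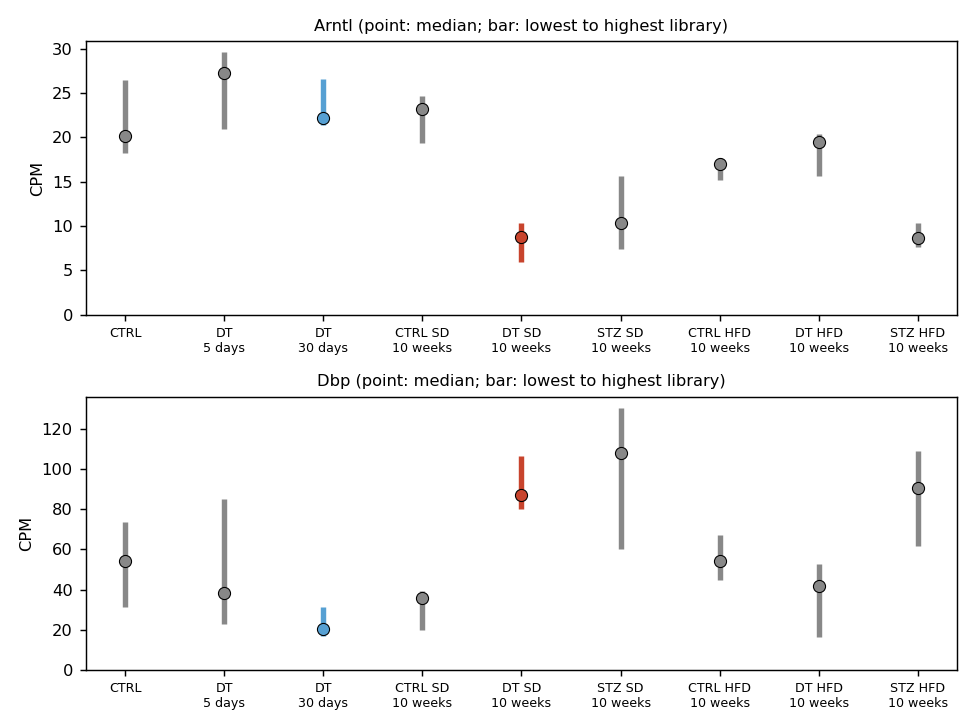
Arntl and Dbp in all 9 groups, in CPM on a linear axis from 0; each point is the group median and each bar runs from the lowest to the highest library. DT SD and both STZ groups sit low for Arntl (medians 8.62 to 10.4 CPM) and high for Dbp (medians 87.2 to 108.0 CPM).

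Outside the clock, 2 further genes rose. Nnt (chr13:119335448-119408997, minus strand) encodes a mitochondrial enzyme that makes NADPH from NADH. It stood at 27.0, 21.5, 21.0 and 21.8 CPM at 30 days and at 43.3, 39.2, 48.2 and 42.2 CPM at 10 weeks. The groups did not overlap, and Nnt rose 1.89-fold, from 22.8 ± 2.82 to 43.3 ± 3.75 CPM (SD, n = 4 each; log2 change 0.92, SE 0.16, adjusted p = 0.0145). Untreated islets ranged from 25.4 to 47.6 CPM. The 30-day values of 21.0, 21.5 and 21.8 CPM lay below all of them, and the late value of 48.2 CPM lay above. The adjusted p was 0.0699 without DT 30 days replicate 2, 0.0582 without DT SD replicate 1 and 0.0874 without DT SD replicate 3, while the log2 change stayed between 0.86 and 0.99 over all 8 such fits. With the compared groups alone the adjusted p was 0.0529.

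Hbp1 (chr12:31926254-31950535, minus strand), a repressor that slows the cell cycle, stood at 67.7, 56.5, 60.1 and 67.0 CPM at 30 days and at 86.6, 77.1, 92.8 and 91.6 CPM at 10 weeks. No library overlapped, and the rise was 1.39-fold, the smallest among the called genes (log2 change 0.47, SE 0.09, adjusted p = 0.0496). In untreated islets the difference was -0.28, and the direct test between the 2 differences gave 0.75 (SE 0.14, adjusted p = 0.116). The Hbp1 call was lost without DT 30 days replicates 2 or 3, without DT SD replicates 1, 3 or 4 and with the compared groups alone (adjusted p = 0.281), although the log2 change stayed between 0.42 and 0.52 with 1 library left out.

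Col18a1 (chr10:77052178-77166548, minus strand), which encodes collagen XVIII of basement membranes and the precursor of endostatin, fell. It stood at 42.3, 53.2, 41.0 and 40.3 CPM at 30 days and at 21.0, 21.1, 15.2 and 15.7 CPM at 10 weeks. All late libraries lay well below the earlier ones, a fall of 2.42-fold (log2 change -1.27, SE 0.21, adjusted p = 0.0145). Col18a1 was also the one gene called between CTRL and CTRL SD (0.00568% of genes; log2 change -1.51, SE 0.25, adjusted p = 0.0307), where it stood at 51.2, 25.9 and 59.3 CPM and at 18.5, 15.4 and 13.9 CPM. That call was lost without CTRL replicate 1 or any 1 CTRL SD library (adjusted p = 0.119 to 0.552), with the acinar covariate (0.058) and with the compared groups alone (0.615). The direct test between the 2 differences gave 0.24 (SE 0.32, adjusted p = 0.944). Its DT call was lost without DT 30 days replicate 2 (adjusted p = 0.0699) and without DT SD replicates 1, 3 or 4, with log2 changes of -1.35 to -1.17 over the fits with 1 library left out.

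Col18a1 was the one called member of the list of collagens and matrix genes. All 20 members had log2 changes below 0, with a median of -0.54 against -0.03 over all genes, and 6 (30%) did not overlap, all lower, against 4.02% of all genes. Of all genes 46.1% were above 0. Col5a1, a fibrillar collagen, stood at 41.6, 48.2, 44.0 and 31.8 CPM and then at 26.8, 18.8, 13.9 and 21.2 CPM (log2 change -1.04, SE 0.25, adjusted p = 0.123). Col1a1, the main chain of collagen I, was at 133.1 to 150.8 CPM and then at 49.3 to 98.7 CPM (adjusted p = 0.219). Both separated by group without passing. Mesenchymal markers moved beside them, but their list also holds Col1a1 and is not a set apart. All 14 were below 0, with a median of -0.60, and summed to 1632 to 2217 CPM and then to 844.1 to 1667 CPM. Their part in the matrix values was not tested. Without DT 30 days replicate 2 the medians were -0.46 for matrix genes and -0.59 for mesenchymal markers. Between CTRL and CTRL SD both lists were also lower, with medians of -1.07 and -1.13.

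Igsf8 (chr1:172261641-172319841, plus strand), a membrane protein of the immunoglobulin superfamily that binds tetraspanins, stood at 28.3, 49.1, 33.0 and 35.6 CPM at 30 days and at 24.1, 21.7, 25.9 and 20.7 CPM at 10 weeks. The groups were apart, and the highest value was that of DT 30 days replicate 2. The log2 change was -0.66 (SE 0.13, adjusted p = 0.0496), and without that library it was -0.48 (adjusted p = 0.239). The call was also lost without DT 30 days replicate 4 and without each DT SD library.

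Ngfr (chr11:95568818-95587735, minus strand), the low-affinity neurotrophin receptor of sympathetic neurons and Schwann cells, rested on 1 library. It stood at 14.2, 301.3, 21.1 and 9.98 CPM at 30 days and at 5.16, 6.76, 4.38 and 7.60 CPM at 10 weeks. Although the groups did not overlap, replicate 2 was far above the other 3 earlier libraries. The log2 change was -3.85 (SE 0.73, adjusted p = 0.04) with it and -1.33 (adjusted p = 0.323) without it. The call was also lost without any 1 of the DT SD libraries.

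Sympathetic neuron markers were high in the same library. Th, the rate-limiting enzyme of catecholamine synthesis, stood at 382.5 CPM there, at 12.1 to 51.1 CPM in the other DT 30 days libraries. Slc6a2, the noradrenaline transporter, was at 689.0 CPM against 0.655 to 2.91 CPM, and at 0.168 to 0.574 CPM in DT SD. Of the 10 sympathetic markers all were below 0, with a median log2 change of -2.54 with that library and -0.59 without it. For the 10 Schwann cell and glia markers, all below 0, the medians were -1.07 and -0.52. No member of either list passed in edgeR (9 sympathetic and 3 Schwann members had an unadjusted p under 0.05), and DESeq2 called 5 sympathetic members. The share of these cells in the Ngfr value was not tested.

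The immunoglobulin segments varied between libraries as well as between groups. Ighv4-1 (chr12:113948282-113948796, minus strand), a heavy-chain variable segment, stood at 25.2, 175.7, 21.9 and 15.6 CPM at 30 days and at 1.97, 0.719, 4.13 and 5.02 CPM at 10 weeks. The groups were apart, with DT 30 days replicate 2 highest (log2 change -4.33, SE 0.80, adjusted p = 0.0302), and without it the values were -2.82 and adjusted p = 0.213. Leaving out any 1 DT SD library also ended the call. Igkv3-9 (chr6:70588189-70588777, plus strand), a kappa light-chain segment, had 3452, 177, 432 and 30 counts at 30 days and 12, 0, 0 and 0 counts at 10 weeks. A count of 0 allows up to 3 counts, or 0.215 to 0.253 CPM over the DT SD libraries. Its adjusted p was 0.0496, and the call was lost without DT 30 days replicates 1 or 2 and without each DT SD library.

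Ighm, the constant part of IgM and a marker of B cells, ranged from 968.5 to 7219 CPM at 30 days and from 161.3 to 988.1 CPM at 10 weeks. These ranges overlapped (log2 change -2.32, SE 0.77, adjusted p = 0.244). The 15 T and B lymphocyte markers summed to 1277 to 7927 CPM and then to 273.7 to 2066 CPM, with 9 members above 0 and 6 below. Their part in the segment values was not tested, and reads of near-identical variable segments may have been split by the counting.

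**Figure D4:**
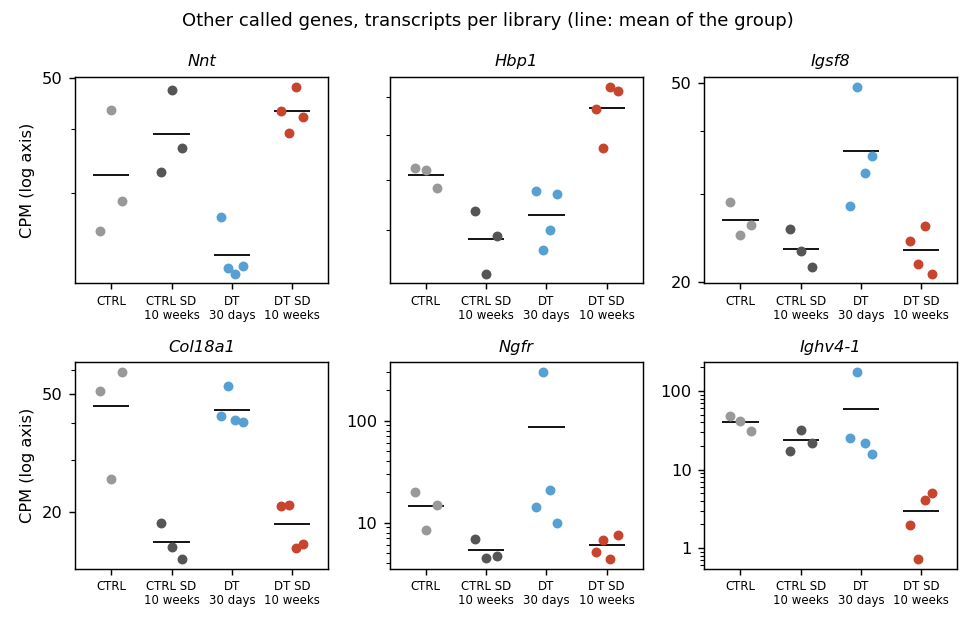
Levels of 6 called genes outside the clock in single libraries of CTRL, CTRL SD, DT 30 days and DT SD 10 weeks, in CPM on a log axis; each point is 1 library and each line is the group mean. Nnt and Hbp1 sit higher in DT SD than in DT 30 days, Col18a1 is low in both SD groups, and for Ngfr and Ighv4-1 the library at 301.3 and 175.7 CPM is DT 30 days replicate 2.

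The hormone genes overlapped between the 2 times after DT. Ins2, the main mouse insulin gene, stood at 134300, 83820, 127300 and 211700 CPM at 30 days and at 163500, 165300, 152900 and 152000 CPM at 10 weeks. The late libraries lay inside the span of the earlier ones (log2 change 0.19, SE 0.51, adjusted p = 0.947). Ins1 differed by 0.31 (adjusted p = 0.874) and Iapp, the amyloid peptide released with insulin, by 0.36 (adjusted p = 0.796). Gcg (glucagon) differed by 0.20 and Sst (somatostatin) by -0.17, with adjusted p-values of 0.897 and 0.967. Without DT SD replicate 3 the values were -0.18 and -1.53, and Sst was above 0 without DT 30 days replicates 2 or 3 or DT SD replicates 2 or 4 (0.0214 to 0.18). Ppy (pancreatic polypeptide) was uneven, at 1279, 3277, 3192 and 458.2 CPM and then at 186.9, 29.5, 7798 and 170.0 CPM, with DT SD replicate 3 far above the rest.

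Of the 19 beta-cell markers, 13 had log2 changes above 0, and 3 (15.8%) did not overlap, against 7.55% of all genes. None passed in edgeR (3 had an unadjusted p under 0.05) or DESeq2. Mafa, a transcription factor of mature beta cells, stood at 116.2, 99.2, 125.6 and 201.0 CPM at 30 days and at 91.2, 82.9, 60.9 and 56.6 CPM at 10 weeks. Each late library was below each earlier one, without passing (log2 change -0.89, SE 0.41, adjusted p = 0.417). G6pc2, an islet glucose-6-phosphatase, stood at 1021, 665.0, 988.2 and 1156 CPM and then at 1981, 1365, 1871 and 1850 CPM. It was higher in each late library, again without passing (log2 change 0.88, SE 0.42, adjusted p = 0.432). Slc2a2, the glucose transporter GLUT2, and Ucn3, a maturity marker, overlapped (log2 changes 0.21 and 0.21), and Slc2a2 was at -0.0059 without DT SD replicate 2.

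Most genes of the cell cycle overlapped between the groups. Mki67, a marker of cycling cells, stood at 60.3, 15.5, 38.9 and 17.6 CPM at 30 days and at 20.7, 39.5, 6.82 and 33.6 CPM at 10 weeks (log2 change -0.39, adjusted p = 0.865; 0.0534 without DT 30 days replicate 1). Top2a, needed to untangle replicated DNA, overlapped likewise (log2 change -0.35, adjusted p = 0.875). Of 22 mitosis genes 20 were below 0, with a median of -0.37, yet every one of them overlapped, whereas 7.55% of all genes did not overlap. Cdkn1a, the CDK inhibitor p21, stood at 17.1, 27.3, 14.2 and 14.6 CPM and then at 11.1, 9.27, 11.1 and 6.67 CPM. It was lower in each late library without passing (log2 change -0.94, SE 0.44, adjusted p = 0.427). Cdkn2a, the locus of p16, stood between 0.0639 and 1.51 CPM in all 8 libraries.

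Hbegf is the mouse gene whose human or simian counterpart serves as the toxin receptor. It stood at 12.9, 22.0, 13.1 and 14.7 CPM at 30 days and at 13.5, 13.2, 13.5 and 14.6 CPM at 10 weeks (log2 change -0.20, SE 0.78, adjusted p = 0.968; 0.0119 without DT 30 days replicate 2). The 2 DT groups overlapped and both lay below CTRL (23.5 to 93.5 CPM) and CTRL SD (90.6 to 114.9 CPM). Whether reads of the transgene were counted with the mouse gene is not stated in the labels.

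Metabolic lists leaned to the lower side. Of 24 sterol and fatty acid synthesis genes 23 were below 0, with a median of -0.38, and 6 (25%) did not overlap, all lower, against 4.02% of all genes. Hmgcs1, an early enzyme of cholesterol synthesis, stood at 72.4, 249.9, 91.3 and 98.4 CPM at 30 days and at 68.2, 64.1, 59.5 and 65.3 CPM at 10 weeks. The groups were apart, with DT 30 days replicate 2 highest (log2 change -0.99, adjusted p = 0.129; -0.44 and 0.783 without that library). Without DT 30 days replicate 1 its adjusted p was 0.0444. All 18 glycolysis genes were below 0, with a median of -0.39, and 5 (27.8%) did not overlap, all lower. Hk1, a hexokinase of most tissues but scarce in beta cells, was at 173.6 CPM in DT 30 days replicate 2 and at 36.1 to 41.4 CPM in the other 3 (log2 change -1.16, adjusted p = 0.199; -0.24 without replicate 2). Without replicate 2 the medians were -0.19 for sterol synthesis, with 18 genes below 0, and -0.16 for glycolysis, with 13 below 0. No member passed in edgeR (10 sterol and 3 glycolysis genes had an unadjusted p under 0.05, against 11.0% of all genes), and DESeq2 called 2 sterol genes.

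Markers of other cells in the preparation differed too. Acinar markers, from the exocrine tissue around the islets, were higher in 24 of 25 genes, with a median of 1.54, and summed to 14370 to 100700 CPM and then to 56970 to 251600 CPM. Amy2b is an amylase locus that the annotation used for positions lists as an unprocessed pseudogene. It stood at 341.2, 83.1, 342.0 and 243.8 CPM and then at 967.9, 438.4, 2307 and 1989 CPM. That separation did not pass (5.65-fold, adjusted p = 0.345). With an acinar score as a covariate 6 genes were called, Arntl and Nr1d2 among them. Of 15 macrophage markers 13 were below 0, with a median of -0.40, and sums of 1810 to 2488 CPM and then 857 to 1803 CPM. Cx3cr1, a receptor of resident macrophages, stood at 24.1, 15.1, 18.3 and 15.2 CPM and then at 16.6, 9.20, 6.57 and 11.0 CPM, which overlapped. The acinar and macrophage lists had no member past the test in edgeR (2 and 4 had an unadjusted p under 0.05), and DESeq2 called 1 macrophage gene. Between CTRL and CTRL SD these lists went the same way. The medians there were 3.06 for acinar markers (25 of 25 above 0) and -0.96 for macrophage markers (15 of 15 below 0).

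**Figure D5:**
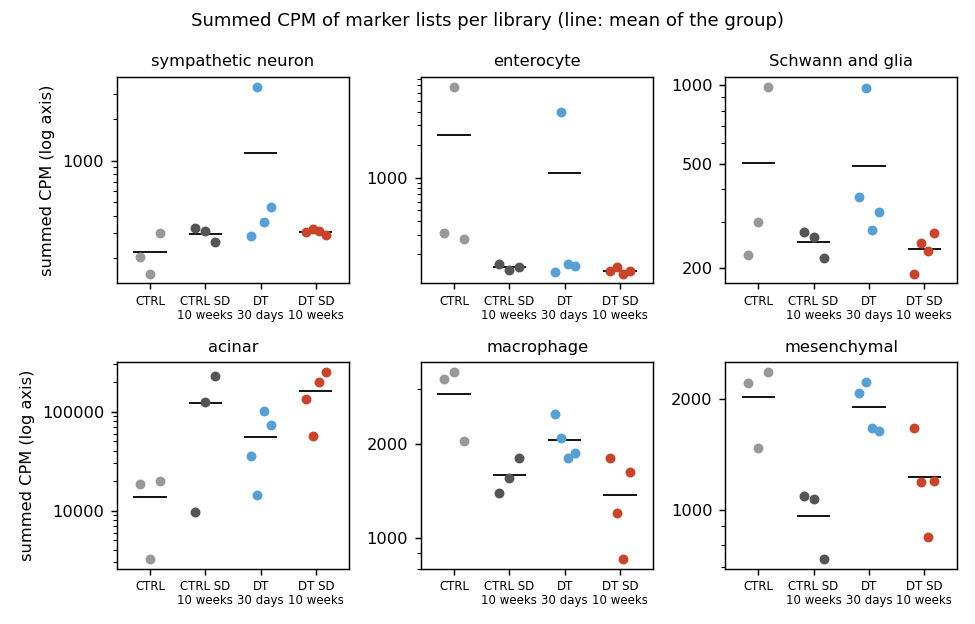
Summed CPM of 6 marker lists in single libraries of CTRL, CTRL SD, DT 30 days and DT SD 10 weeks, on a log axis; each point is 1 library and each line is the group mean. DT 30 days replicate 2 is the point at 3422 CPM for sympathetic neuron, 3976 CPM for enterocyte and 974.2 CPM for Schwann cell and glia markers, and the mesenchymal sums are 844.1 to 1667 CPM in DT SD.

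Stress and respiration lists differed in direction. Of 24 unfolded protein response genes 18 were above 0 with a median of 0.10, of 22 interferon response genes 11 were above 0 and 11 below, and of 30 oxidative phosphorylation genes 12 were above 0 with a median of -0.02. None of the members of these 3 lists separated without overlap between the groups, against 7.55% of all genes. The median of heat shock genes was -0.20 (13 of 17 below 0), and that of NRF2 and oxidative stress genes -0.11 (13 of 21 below 0). Immediate early genes had a median of -0.16 (16 of 21 below 0), and 1 of the 21 (4.76%) did not overlap. Ribosomal protein genes were above 0 in 20 of 24, with a median of 0.19 (0.07 without DT 30 days replicate 2), and overlapped as well.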

How the data were processed

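Islet RNA came from RNeasy Mini columns and was made into stranded mRNA libraries, per the labels' protocols. The deposited table gives total counts of reads per gene, per the file headers, and these counts entered all tests. RPKM and TPM values that the authors deposited beside them were not used. Nor was a column headed CPM, a score by the authors whose sums are not those of CPM. The assembly is mm10, per the submitters' processing notes. For aligner, annotation and strand setting, no value was given in the sources used here, so reads of overlapping or antisense genes may be mixed.

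The labels placed 33 libraries in 9 groups, and 1 library with conflicting labels was left out. Genes passed filterByExpr (count minimum 10, total minimum 15) of edgeR 4.0.16 (R 4.3.3), which kept 17616 of 48709. TMM scaling and 1 quasi-likelihood fit with group as the factor covered all 33 libraries, and prior degrees of freedom were 1.63 to 3.11. Contrasts were DT SD minus DT 30 days, CTRL SD minus CTRL, and the difference of both. Adjusted p-values are from edgeR's quasi-likelihood F test, Benjamini-Hochberg over 17616 genes, and a gene passed under 0.05. CPM refers to TMM-scaled library size, and log2 changes and SE are from the fit. Within groups no 2 libraries were as close as counting noise (smallest chi-square per degree of freedom 35.7). On simulated data with 200 changed genes, 47.4% of 2-fold and 68.7% of 4-fold changes were recovered, and 2.59% of calls were false. Those counts were drawn for each gene independently, with no outlying library and no shared shift in cell mix. The simulated rates therefore need not hold for the measured libraries. Positions are from GENCODE M21 on GRCm38, which held 17574 (99.76%) of the genes tested.

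The comparison and the 45 gene lists were chosen with earlier results of these data known, and 1 measured clock gene was taken out of its list and is not reported here. Named were a fixed set of 14 hormone, beta-cell, cell-cycle and receptor genes, up to 15 called genes in each direction (filled to 5 with the smallest p; mean log2 CPM at least 1) and the 3 members of each list with the smallest adjusted p. Clock genes other than Arntl, Nr1d2, Dbp and Tef were given because the whole list is described, and some of them after their values were seen. Alternatives were DESeq2 1.42.0 (size factors and Wald test), other filters, hormone genes left out before scaling, an acinar covariate, the compared groups alone, the replicate number as a block, libraries with over 500 CPM of enterocyte markers left out, and each library left out in turn.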

Additional observations from a re-analysis of the deposited data

Results flagged for a closer look

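A library was singled out where its gap to the nearest of the other 3, as a share of the group's range, exceeded the 95% limit of Dixon's test for 4 values. Of 150 groups of 4 values examined 25 were singled out, and 14 of the 25 were DT 30 days replicate 2. Chance gives about 1 in 20 only for independent values with a normal spread. Here CPM was not transformed, many genes were named from these same data, and the marker sums hold some of those genes. That rate is therefore no measure for the 25.

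In that library Ngfr was at 301.3 CPM, Th at 382.5 CPM, Slc18a2 (the vesicle monoamine transporter) at 316.5 CPM and Slc6a2 at 689.0 CPM, each far above the other 3. Mbp, a myelin gene, was at 179.8 CPM. Summed markers were at 3422 CPM for sympathetic neurons, 974.2 CPM for Schwann cells and glia and 3976 CPM for enterocytes, and Apoa1, an enterocyte apolipoprotein, at 807.7 CPM. The same library was highest for Col18a1 (53.2 CPM), Ighv4-1 (175.7 CPM), Hmgcs1 (249.9 CPM), Hk1 (173.6 CPM) and Phlda3 (20.4 CPM).

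Other DT 30 days libraries stood apart for Nnt (27.0 CPM, replicate 1), Igkv3-9 (222.7 CPM, replicate 1), Saa3 (24.3 CPM, replicate 1) and Gcg (40900 CPM, replicate 3). In DT SD, replicate 3 was highest for Ppy (7798 CPM) and lowest for Ucn3 (317.4 CPM) and Npy (29.1 CPM), and was the only one with Apoa1 above 0 (0.0842 CPM). Replicate 2 was highest for Tef (89.6 CPM), replicate 1 was the only one with Igkv3-9 above 0 (0.983 CPM), and replicate 4 was lowest for Cyp51 (28.0 CPM).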

How the results depend on the processing

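The DT comparison called 10 genes, 4 without a filter on low counts, 6 with the acinar covariate, 4 with the compared groups alone, 335 by DESeq2 and 118 by DESeq2 without the library rich in sympathetic neuron markers, an alternative chosen after seeing the data. The untreated comparison (1 gene) gave 4 without the filter, 0 with the covariate, 0 with the compared groups alone, 39 without libraries rich in enterocyte RNA and 160 by DESeq2. The difference of both (0 genes) gave 1 with hormone genes left out (Hbp1), 3 without the enterocyte-rich libraries and 31 by DESeq2. Leaving out each library in turn gave 1 to 42 genes for the DT comparison and 0 to 123 for the untreated one (0 without any CTRL SD library or CTRL replicate 1, 5 without CTRL replicate 2, 123 without CTRL replicate 3).

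Over 18 alternatives Arntl passed in 16, Nnt in 13, Nr1d2 and Col18a1 in 12, Dbp in 10, Hbp1, Ngfr and Ighv4-1 in 8, and Igsf8 and Igkv3-9 in 6, and none of the 10 called genes turned sign. Direction turned for values near 0: Hbegf was 0.27 with the covariate, 0.0135 without enterocyte-rich libraries and 0.0139 by the added DESeq2 fit, and Ppy was 0.0043, 0.33 and 0.32 with the compared groups alone and those same fits. Sst was 0.0290 and 0.0203, and Cdkn2a was -0.13 and -0.12, in the last 2 of these. With 1 library left out, ranges were -0.31 to 0.0119 for Hbegf, -3.99 to 0.41 for Ppy, -1.53 to 0.18 for Sst, -0.39 to 0.58 for Cdkn2a, -0.70 to 0.0534 for Mki67, -0.0059 to 0.59 for Slc2a2 and -0.18 to 0.41 for Gcg. The cause was not tested.

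Replicate numbers did not pair the samples (correlations of same-numbered libraries -0.173 to -0.0197, 0 of 4 pairs over 0.1). With the replicate number as a block and the compared groups alone, 7 genes were called, 2 of them shared with the 10; Dbp had a log2 change of 2.07 (edgeR adjusted p = 0.0447) and Arntl one of -1.47 (adjusted p = 0.165).

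Depth limits genes of few counts, such as Ciart.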

Other observations

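A few genes outside the naming rule were picked after their values were seen, and their levels are given as descriptions. H2-Ea-ps, an MHC class II locus, had 198, 443, 868 and 485 counts at 30 days and 0 counts in all 4 DT SD libraries, where 0 counts allow up to 0.253 CPM. It ranged from 1.28 to 138.0 CPM in CTRL SD. Gm10260 stood at 46.1, 70.8, 135.7 and 117.0 CPM at 30 days and at 0.737, 0, 0.253 and 0 CPM in DT SD, and Gm8909 at 4.45, 19.7, 15.0 and 8.81 CPM and then at 0.246, 0, 0.758 and 0.215 CPM. Both were also low in 1 CTRL SD library, replicate 3, at 6.74 and 0 CPM. The 3 loci thus varied between libraries of 1 untreated group as well as between the DT groups. Any part of genetic background in these values, or in those of Nnt and the immunoglobulin segments, was not tested.

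Lars2, a mitochondrial leucyl-tRNA synthetase, stood at 59.5, 81.6, 154.3 and 116.1 CPM at 30 days and at 195.8, 335.3, 795.8 and 608.9 CPM in DT SD, without overlap (log2 change 2.23, SE 0.50, edgeR adjusted p = 0.0958).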
